A study of Bos taurus with 6 samples.

Results

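Matricellular proteins were followed here through 8 genes: the thrombospondins THBS1 and THBS2, the adhesive glycoprotein fibronectin (FN1), SPARC, tenascin C (TNC), periostin (POSTN) and the CCN family members CYR61 (now CCN1) and CTGF (now CCN2). The members were found by the gene symbol of the probes in the array's platform annotation, where 7 of the 8 had 1 probe each and THBS2 had none and was not analysed here. These 7 stood among 15204 genes with a symbol on the array. The 7 probes were EMBV3_10969 for THBS1, EMBV3_05066 for FN1, EMBV3_02377 for SPARC, EMBV3_28221 for TNC, EMBV3_04630 for POSTN, EMBV3_16274 for CCN1 and EMBV3_08914 for CCN2. With 1 probe per gene, no value below has a check from another probe of the same gene.

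Matricellular proteins are secreted into the extracellular matrix but contribute little to its mechanical strength. They bind collagens, integrins, proteoglycans and growth factors and so change how cells attach, migrate and respond. Many of them are made at low levels in resting adult tissue and at high levels during remodelling, and the ovary, on which gonadotropins act, remodels with each follicle that grows, ovulates and turns into a corpus luteum.

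RNA of 3 superstimulated multiparous beef cows (group 1) and 3 non-superstimulated cows (group 4, the reference) was compared on 6 two-colour arrays. Superstimulation means giving gonadotropins so that many follicles grow together, yet the labels list gonadotropins as the hormone of the reference channel too. The labels name no tissue, age, dose or time, so no tissue identity could be set against its markers; they say that samples were dissected and snap frozen. Cow 1 of one group shared an array with cow 1 of the other, likewise cows 2 and 3, and each of these 3 cow pairs was hybridised again with the dyes exchanged. Each pair was therefore 1 replicate (n = 3 pairs), and the 2 arrays of a pair were technical repeats.

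The direction of the ratios is not settled. Per array, the dye labels place the superstimulated cow in the red dye Cy5 on arrays 1 to 3, while the worked example in the series' design text places it in Cy3, which would exchange the groups and turn the sign of each ratio. All values follow the dye fields, and "higher" and "lower" carry that condition. Median corrected intensity was 122 to 164 in green and 117 to 164 in red, and 65.4% to 71.2% of probes in green and 47.3% to 63.2% in red exceeded the negative control spots. Over the 31957 probes kept, the turned ratios of the 2 arrays of a pair correlated at 0.0373 in pair 1, 0.723 in pair 2 and 0.575 in pair 3, so that over all probes the ratios of pair 1 hardly repeated. By the names of the deposited tables, arrays 1 to 3 lay on 1 slide and their swaps on another, so dye and slide cannot be told apart. With so few arrays, precision is limited throughout.

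The 7 genes did not move as a block. THBS1 was higher in each of the 3 superstimulated cows than in her partner, SPARC was slightly lower in each, and the others differed strongly in 1 or 2 pairs. A log2 ratio of 1 is a 2-fold difference. In pair 1, THBS1 was at least 2-fold higher on both arrays and POSTN at least 2-fold lower, where 0.297% of all kept probes were so much higher and 0.429% so much lower. In pair 2, THBS1, FN1 and CCN2 were at least 2-fold higher, against 2.95% of probes, and none of the 7 was 2-fold lower, against 3.15%. In pair 3, FN1 and POSTN were at least 2-fold higher, against 4.19% of probes, and CCN1 was lower, against 1.77%. TNC was also at least 2-fold higher in pair 3. Its probe was kept only through that pair, so it adds nothing to the count. The median over the 7 genes was -0.07, 0.36 and 0.69 in pairs 1, 2 and 3, beside 0.00, 0.00 and -0.03 over all kept probes. The median of pair 3 includes TNC and is raised by it.

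**Figure D1:**
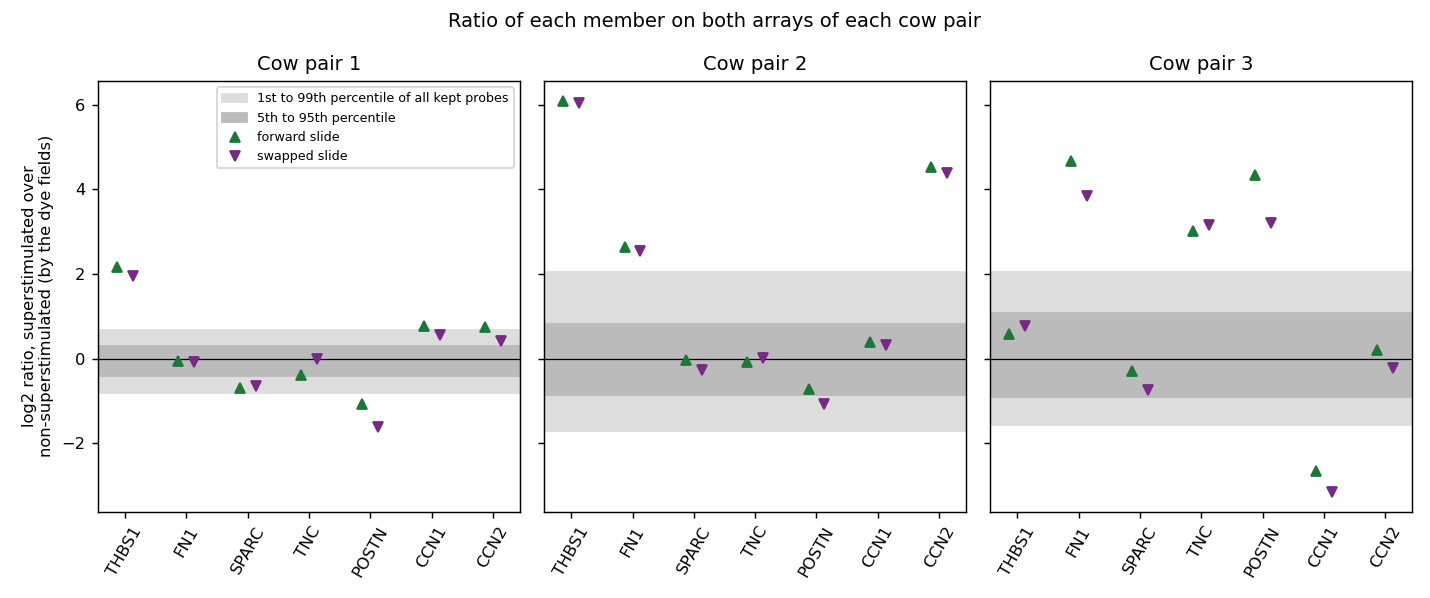
Log2 ratio of superstimulated over non-superstimulated (by the dye fields) for each of the 7 genes in cow pairs 1, 2 and 3. Triangles are the 2 arrays of a pair, and the grey bands span the central percentiles of all 31957 kept probes; THBS1 leaves the 1st to 99th percentile band in pairs 1 and 2, CCN2 in pair 2, FN1 in pairs 2 and 3, and TNC, POSTN and CCN1 in pair 3. In pair 1, POSTN lies below the band, and CCN1 (0.78) and CCN2 (0.75) lie just above it on array 1 only.

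THBS1 encodes thrombospondin 1, a trimeric glycoprotein that inhibits blood vessel growth through the receptor CD36 and can activate latent TGF-beta. Its log2 level was 9.04, 12.47 and 7.90 in superstimulated cows 1, 2 and 3. It was 6.98, 6.39 and 7.22 in non-superstimulated cows 1, 2 and 3. The lowest superstimulated cow thus lay above the highest non-superstimulated cow, and the groups did not overlap; this held for 1 of the 7 genes, and for 5.35% of all kept probes in either direction. The closest cows of the groups were both number 3, and the gap between them was smaller than the SD of 2.38 among the superstimulated cows. Each superstimulated cow exceeded the negative controls on both of her arrays. Non-superstimulated cow 1 did so on both arrays, cow 3 on 1 and cow 2 on neither, so the reference level was near the floor of the array.

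As ratios, THBS1 had 2.16 and 1.96 on the arrays of pair 1, 6.10 and 6.05 in pair 2, and 0.59 and 0.78 in pair 3. The pairs thus stood far apart, while the 2 arrays of each lay within 0.21 of each other. In pair 2 THBS1 measured 67.5-fold higher, but the dim cow makes that fold imprecise. The ratio was 4.17-fold in pair 1 and 1.61-fold in pair 3. In the authors' deposited log2 values the pairs had 1.81, 5.35 and 0.37, but 1 array of pair 3 lay at -0.19.

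**Figure D2:**
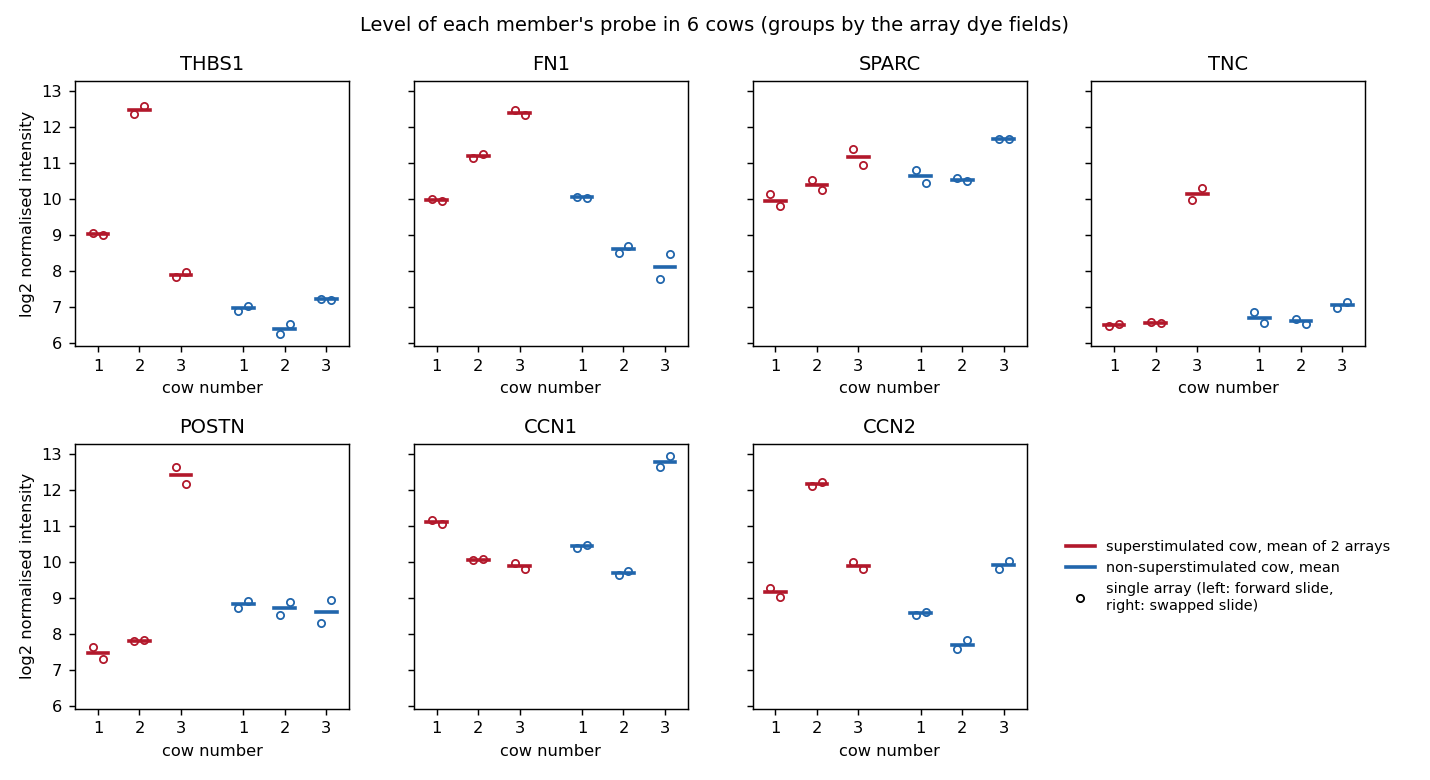
Log2 normalised intensity of each gene's probe in the 3 superstimulated (red) and 3 non-superstimulated (blue) cows, by the dye fields; bars are the mean of a cow's 2 arrays and circles the single arrays. The red and blue bars are separate for THBS1 alone among the 7 genes, and a single cow stands out for THBS1 (superstimulated cow 2), TNC and POSTN (superstimulated cow 3), CCN1 (non-superstimulated cow 3) and CCN2 (superstimulated cow 2). Levels are to be compared within a panel, not between probes.

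FN1 encodes fibronectin, which links integrins on the cell surface to collagen and fibrin and is assembled into fibrils by cells. Its log2 level was 9.98, 11.20 and 12.39 in superstimulated cows 1, 2 and 3. It was 10.05, 8.61 and 8.13 in non-superstimulated cows 1, 2 and 3, each above the negative controls on both arrays. The groups overlapped through the cows numbered 1, whose levels hardly differed. FN1 had log2 ratios of -0.05 and -0.09 on the arrays of pair 1, 2.63 and 2.55 in pair 2, and 4.68 and 3.85 in pair 3. It was thus 6.03-fold higher in pair 2 and 19.2-fold higher in pair 3, and level in pair 1. The deposited log2 values gave the pairs -0.09, 2.51 and 4.27.

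The summed level of fibroblast and stroma markers moved with FN1, but most single markers did not. Their summed normalised intensity over 9 measured genes was 11200, 27800 and 24500 in superstimulated cows 1, 2 and 3. It was 8590, 3060 and 3410 in non-superstimulated cows 1, 2 and 3, so that the sum, like FN1, differed most in pairs 2 and 3. As with THBS1, superstimulated cow 2 had the highest sum and the groups did not overlap. The median ratio of the 9 markers, by contrast, was 0.13, 0.13 and 0.31 in pairs 1, 2 and 3. Of these 9 markers, 7 had a mean ratio above 0 and 2 below, and 6 exceeded the negative controls on all arrays of each group. Lumican (LUM), a proteoglycan of collagen fibrils, had ratios of -0.06, 4.02 and 4.38 in the 3 pairs and decorin (DCN) 0.15, 2.30 and 0.30. FBLN1 had -0.66, 0.77 and 1.77, in the order of FN1. TCF21 had -1.05, -0.20 and 0.31, in that order too but negative in pair 2. The others had no such order, with COL1A1 at 0.13, 0.13 and -0.25, COL3A1 at 1.01, -0.45 and 3.10 and COL1A2 at 0.65, -0.53 and 1.66. PDGFRA had 0.45, 1.68 and -1.11, and DPT -0.06, 0.01 and -0.38. The part of stromal cells in the FN1 and THBS1 ratios was not tested, and in RNA of whole samples more cells of a type and more RNA per cell cannot be told apart.

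SPARC, also called osteonectin, is a glycoprotein that binds collagen and calcium and loosens the attachment of cells to the matrix. Its log2 level was 9.96, 10.39 and 11.16 in superstimulated cows 1, 2 and 3. It was 10.63, 10.54 and 11.66 in non-superstimulated cows 1, 2 and 3. The groups overlapped, and cow 3 was the highest of either group. SPARC had ratios of -0.69 and -0.64 on the arrays of pair 1, -0.04 and -0.26 in pair 2, and -0.28 and -0.73 in pair 3. The differences were small, 1.59-fold, 1.11-fold and 1.42-fold lower in superstimulated cows, and in pairs 2 and 3 the gaps between arrays of 0.22 and 0.45 were close to the ratios. In the deposited log2 values pair 2 lay at 0.23, with the other sign.

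TNC encodes tenascin C, a large star-shaped protein that appears in wounds, tumours and embryonic mesenchyme. Its log2 level was 6.51, 6.57 and 10.15 in superstimulated cows 1, 2 and 3. It was 6.71, 6.61 and 7.06 in non-superstimulated cows 1, 2 and 3. Superstimulated cow 3 stood alone: she exceeded the negative controls on both arrays, and among the other cows only non-superstimulated cow 1 did so, on 1 array. TNC had ratios of 3.01 and 3.17 on the arrays of pair 3. It measured 8.52-fold higher in that pair, but non-superstimulated cow 3 was below the controls on both arrays, so that fold is imprecise. In pair 2 neither cow exceeded the controls, and the ratio of pair 1 (-0.20) also has a dim cow. TNC passed the filter on dim probes with 3 arrays, the smallest number allowed, of which 2 were those of pair 3, where it was high.

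POSTN encodes periostin, a collagen-binding protein of connective tissue that TGF-beta induces in fibroblasts. Its log2 level was 7.47, 7.81 and 12.40 in superstimulated cows 1, 2 and 3. It was 8.82, 8.71 and 8.62 in non-superstimulated cows 1, 2 and 3, which hardly varied, with an SD of 0.10 against 2.75 among the superstimulated cows. Here superstimulated cows lay on both sides of the reference, cows 1 and 2 below and cow 3 far above. POSTN had ratios of -1.07 and -1.62 in pair 1, -0.72 and -1.07 in pair 2, and 4.34 and 3.20 in pair 3. It was thus 2.54-fold and 1.86-fold lower in pairs 1 and 2 and 13.7-fold higher in pair 3. The gap of 1.14 between the arrays of pair 3 was the largest among the 7 genes. POSTN was also the only one of the 7 with a call for the dye term, the part of the ratio that followed dye and slide, at 0.34 (adjusted p = 0.02 by limma), against 35.1% of all kept probes.

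CCN1 and CCN2 are secreted integrin ligands whose genes respond to growth factors, TGF-beta and, through the co-activators YAP and TAZ, to cell stretch. CCN1 had log2 levels of 11.10, 10.06 and 9.88 in superstimulated cows 1, 2 and 3. It had 10.43, 9.70 and 12.78 in non-superstimulated cows 1, 2 and 3. The reference cow 3 was far above the other 5 cows, which lay between 9.70 and 11.10. The ratios were 0.78 and 0.57 in pair 1, 0.40 and 0.32 in pair 2, and -2.65 and -3.15 in pair 3, where CCN1 was 7.45-fold lower in the superstimulated cow.

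CCN2 had log2 levels of 9.15, 12.16 and 9.89 in superstimulated cows 1, 2 and 3. It had 8.57, 7.70 and 9.91 in non-superstimulated cows 1, 2 and 3. Superstimulated cow 2 was far above the other 5 cows, and her partner was the lowest of the 6. The ratios were 0.75 and 0.42 in pair 1, 4.54 and 4.40 in pair 2, and 0.20 and -0.23 in pair 3. CCN2 was thus 22.2-fold higher in pair 2 and level in pair 3, the pair in which CCN1 was lower. The 2 CCN genes therefore departed from the other cows in different animals. In pair 2 CCN2 stood beside THBS1, which had its highest ratio there.

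Tested over the 3 pairs with limma, an adjusted p of 0.05 was passed by 0 of the 7 genes, each at 0.999, and by 0% of the 31957 kept probes. An unadjusted p under 0.05 was reached by 1040 of those probes. SPARC alone of the 7 had an unadjusted p under 0.05 by limma, against 3.25% of all kept probes. The mean log2 ratio of THBS1 was 2.94 ± 2.80 (SD over 3 pairs), with a 95% interval of -0.81 to 6.69. FN1 had 2.26 ± 2.19 (-0.67 to 5.19) and CCN2 1.68 ± 2.43 (-1.58 to 4.94). TNC had 0.95 ± 1.85 (-1.54 to 3.44) and POSTN 0.51 ± 2.83 (-3.28 to 4.30). CCN1 had -0.62 ± 1.98 (-3.27 to 2.03) and SPARC -0.44 ± 0.27 (-0.84 to -0.03). The intervals of all but SPARC thus spanned 0. The SD between pairs was nearly as large as the mean for THBS1 and FN1, and larger than the mean for CCN2, TNC, POSTN and CCN1. Without pair 2 the mean was 1.37 for THBS1 and 0.29 for CCN2, and FN1 had 3.43 without pair 1 and 1.26 without pair 3. Without pair 3 it turned to -0.12 for TNC, -1.12 for POSTN and 0.52 for CCN1. THBS1 and SPARC kept 1 sign on all 6 arrays, 2 of 7 against 5.5% of all kept probes; in the deposited log2 values 0 of the 7 did.

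**Figure D3:**
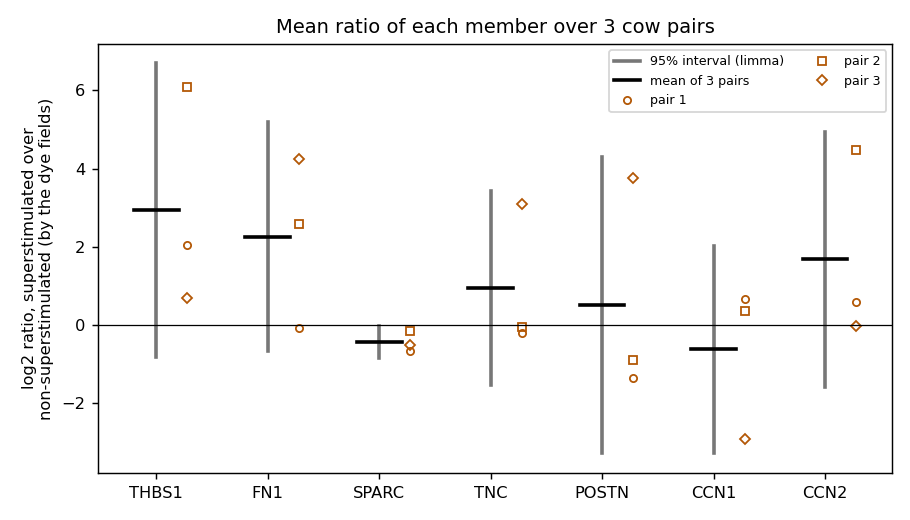
Mean log2 ratio of each gene over 3 cow pairs (black bar) with its 95% interval by limma (grey line) and the 3 pair values (open symbols). The intervals of all genes but SPARC span 0, and the value of a single pair lies far from the other pairs for THBS1, TNC, POSTN, CCN1 and CCN2.

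The differences between cow pairs passed the test against the error of the dye swap for 6 of the 7 genes. For TNC the call rests on pair 3 alone, where it was high and without which it would not have passed the filter, so it adds nothing to the count. The swap repeats the same RNA, so its error is technical. In limma's F test of the 3 pair ratios against each other, 40.3% of all kept probes passed an adjusted p of 0.05. Adjusted p was 6.1e-06 for THBS1, 6.5e-06 for CCN2, 1.3e-05 for TNC, 1.4e-05 for POSTN, 1.6e-05 for CCN1 and 3.6e-05 for FN1. SPARC did not pass, at 0.068. The SD between pairs of the other 5 called genes was above that of 99.1% to 99.8% of the kept probes, whereas that of SPARC was above 57.9%.

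The genes most alike each member were sought among 11663 other named genes, by the root mean square difference of the 6 turned log2 ratios. These rest on 3 cow pairs and share their arrays, so they describe these animals only. Nearest to FN1 were IGF2 (0.48), NT5E (0.55) and TIMP2 (0.63), with IGF2 at 0.14, 2.08 and 3.83 in pairs 1, 2 and 3, and 2 other probes of IGF2 had means of 1.63 and 0.03 beside its 2.02. Nearest to CCN2 were SPSB1 (0.37), ATF3 (0.53) and the membrane proteoglycan SDC4 (0.54), which had 4.88, 4.56 and 4.19 in pair 2. Nearest to THBS1 were FOS (1.29), RNF128 (1.30) and CCN2 (1.34), all less close than the neighbours of the other genes, and another probe had a mean of -0.01 for FOS and 1.11 for RNF128. The rule also named GUSB (0.30), SCN2A (0.31) and PTPN2 (0.31) for TNC. But TNC was near the floor in pairs 1 and 2 and had a dim cow in pair 3, so these distances do not measure likeness. POSTN had PTX3 (0.47), VNN2 (0.54) and STAT4 (0.56), and CCN1 had AXL (0.41), S100A13 (0.41) and SLC43A2 (0.45). Among the members themselves, TNC left out, the closest were THBS1 and CCN2.

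Among 31 other matricellular and related matrix glycoproteins, 22 had a kept probe. Of these, 13 had a mean ratio above 0 and 9 below, with a median of 0.02 beside -0.02 over all 12331 named genes with a kept probe. None passed an adjusted p of 0.05, and 1 had an unadjusted p under 0.05, MFGE8, a secreted integrin ligand, at 0.22 ± 0.06 (SD, n = 3 pairs), against 4.27% of named genes. SMOC2, a relative of SPARC, had -0.21, -0.60 and -1.40 in pairs 1, 2 and 3. Other relatives of SPARC were not lower in each pair. SPARCL1 had 0.29, -0.13 and 0.44, SPOCK1 0.06, 0.16 and -0.02, and SPOCK2 0.04, 0.09 and -0.13. FSTL1 had -0.81, 1.33 and 1.23, positive in pairs 2 and 3 like FN1, and its other probes had means of 0.38 and 0.7. The fibulins EFEMP1 and FBLN1 had -0.10, 1.45 and 1.31, and -0.66, 0.77 and 1.77, which like FN1 were positive in pairs 2 and 3. Both were dim, above the controls on 4 of 6 superstimulated and 2 of 6 reference channels, and FBLN1 is also among the 9 stroma markers above. Other fibulins were unlike FN1. EFEMP2 had 2.47, -2.35 and 0.45 on its brightest probe and a mean of 0.07 on its other probe, and FBLN7, dim as well, had 0.09, 0.01 and 0.06. Ratios differed between pairs for 12 of the 22, or 54.5%, against 49.3% of named genes.

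Of 27 receptors of these proteins, 21 had a kept probe, 9 with a mean ratio above 0 and 12 below, and a median of -0.02. Again 0 passed an adjusted p of 0.05, and 1 of 21 had an unadjusted p under 0.05, against 4.27% of named genes. This was CALR, a chaperone that also binds thrombospondin at the cell surface, at 0.68 ± 0.35 (SD, n = 3 pairs). SDC4, a co-receptor for fibronectin, had -0.03, 4.19 and 0.39 in pairs 1, 2 and 3, and SCARB1, the lipoprotein receptor related to CD36, -0.22, 2.64 and 0.87. The collagen receptor subunit ITGA2 had 0.38, 0.98 and 0.17, and ITGB1, the shared integrin beta chain, 0.16, 0.08 and 0.18. ITGB1 was dim, above the controls on 4 of 6 superstimulated and 3 of 6 reference channels. CD36 itself had 0.14, 0.22 and -0.70 on its brightest probe, while its other probes had means of -1.02 and -0.53. The pairs differed for 12 of the 21 receptors, or 57.1%, near the 49.3% of named genes.

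Of 26 genes of TGF-beta and YAP/TAZ signalling, 17 had a kept probe, 9 with a mean ratio above 0 and 8 below, and a median of 0.01. At an adjusted p of 0.05 there were 0, and at an unadjusted p under 0.05 there were 2 of 17, 1 in each direction, against 4.27% of named genes. These were TEAD2, a DNA-binding partner of YAP and TAZ, at -0.57 ± 0.27 (SD, n = 3 pairs) and the receptor TGFBR2 at 0.61 ± 0.42, whose other probe had a mean of 0.02. ANKRD1, a commonly used YAP and TAZ target, had 0.05, 5.42 and -0.43 in pairs 1, 2 and 3, large in the same pair as CCN2 and THBS1. It lay above the controls on 3 of 6 superstimulated and 5 of 6 reference channels. CCN1, whose gene also responds through YAP and TAZ, had only 0.36 in pair 2. Of the same list, AMOTL2 had -0.10 and LATS2 0.24 in that pair. YAP and TAZ activity was not tested. SMAD2, which carries the TGF-beta signal to the nucleus, had -0.05, -2.25 and -1.39. The pairs differed for 9 of the 17, or 52.9%, again near the 49.3% of named genes.

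**Figure D4:**
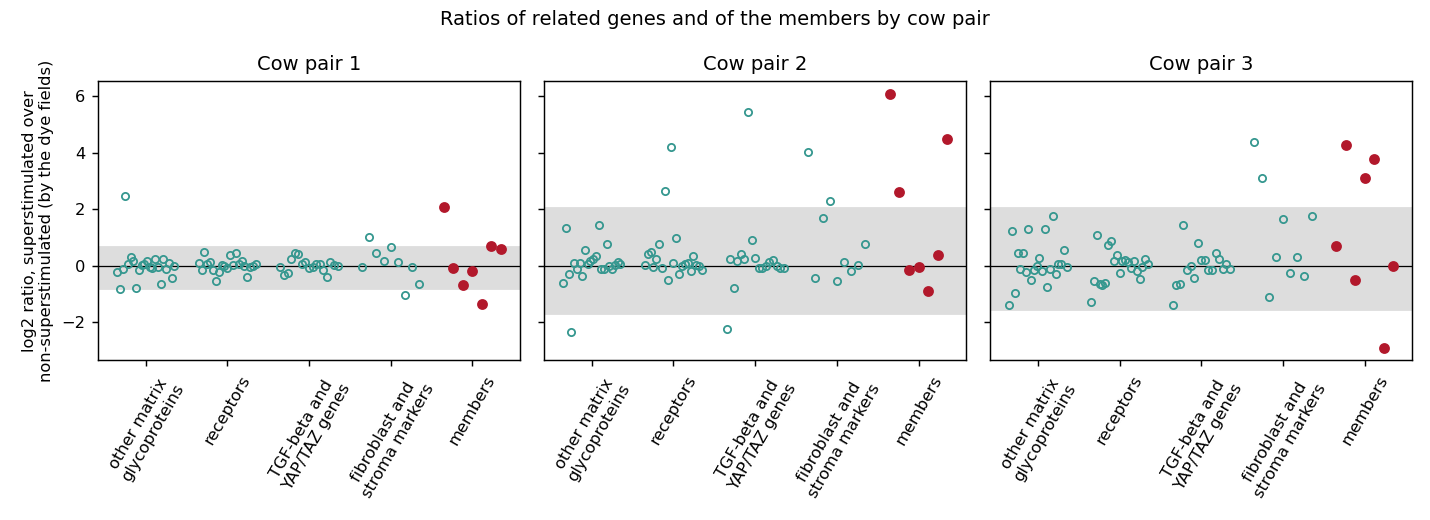
Log2 ratio (superstimulated over non-superstimulated, by the dye fields) in each cow pair for 22 other matrix glycoproteins, 21 receptors, 17 TGF-beta and YAP/TAZ genes, 9 fibroblast and stroma markers (open circles) and the 7 members (filled). The grey band spans the 1st to 99th percentile of all kept probes, and most related genes lie inside it. In pair 2, ANKRD1 at 5.42, SDC4 at 4.19, LUM at 4.02, SCARB1 at 2.64 and DCN at 2.30 lie above it. EFEMP2 at -2.35 and SMAD2 at -2.25 lie below it in that pair.

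Markers of other cell types varied between cows as well. The summed normalised intensity of 8 theca genes was 5620, 1930 and 14000 in superstimulated cows 1, 2 and 3 and 11500, 5690 and 3360 in their partners. It was thus highest in superstimulated cow 3, the cow with the highest FN1, TNC and POSTN. In pair 3 PTCH1 (2.53) and HSD3B1 (1.84) differed most. NR5A1 (0.31), TCF21 (0.31), LHCGR (0.10), CYP17A1 (-0.08), INSL3 (-0.26) and STAR (-0.37) differed little or were lower. For 10 granulosa genes the sum was 121000, 94500 and 84200, and 102000, 114000 and 58000, lowest in reference cow 3, who had the highest CCN1. Single granulosa genes went both ways in pair 3. INHA (1.41), INHBB (0.76), CYP19A1 (0.51), FST (0.41) and INHBA (0.25) were above 0. FSHR (-0.67), AMH (-0.64), NR5A2 (-0.16), GJA1 (-0.05) and HSD17B1 (-0.05) were below. In reference cow 3 the sum of the 5 kept of 10 leukocyte genes was highest, at 6460, against 2680 to 3460 in the other cows. In pair 3 only PTPRC (-1.02) differed clearly, while CD68 (0.04), CD163 (0.13), CD3E (0.03) and CD3D (-0.02) hardly did. The sum of 8 smooth muscle and pericyte genes was 7980, 5130 and 6230 in superstimulated cows 1, 2 and 3. In their partners it was 6730, 7370 and 9790, again highest in reference cow 3. In pair 3 MYH11 (-4.25), DES (-0.74) and PDGFRB (-0.08) were below 0. MCAM (0.69), CNN1 (0.54), ACTA2 (0.06), TAGLN (0.05) and RGS5 (0.02) were above. In pair 2 CNN1 had 3.09, ACTA2 -1.46, MCAM -1.41 and MYH11 -1.10, and the others hardly differed. MYH11 exceeded the controls on 3 of 6 superstimulated and 5 of 6 reference channels. Endothelial markers were dim: 6 of 10 were kept, with sums of 833 to 875 and 823 to 901, and VWF exceeded the negative controls on no superstimulated channel. So were those of platelets and red cells, with 5 of 9 kept and sums of 618 to 689 and 641 to 696. Epithelial markers, 5 of 7 kept, had 713, 7660 and 3530 in superstimulated cows 1, 2 and 3 and 757, 701 and 3540 in their partners, so that the sum differed most in pair 2, where THBS1 and CCN2 were highest. In that pair the keratins KRT8 (5.23) and KRT18 (2.15) carried it, while KRT19 (0.03), EPCAM (-0.09) and CLDN4 (-0.14) hardly differed. KRT19 was dim, above the controls on 3 of 6 superstimulated and 1 of 6 reference channels, and EPCAM on 3 and 5. Also dim were CYP17A1 and CD3D, each on 2 and 3, and HSD17B1, on 2 and 1. The part of these cell types in the ratios of the 7 genes was not tested.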

How the data were processed

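The deposited scanner tables hold, per the file headers, foreground mean and local background median intensity per spot in a green and a red laser, not background-subtracted. Per the labels' protocols, RNA was amplified in 2 rounds and labelled chemically. The authors' deposited log2 values, whose normalization no source used here states, served as an alternative. Set against the scanner ratios, each column correlated at 0.739 to 0.868 with its own array and at 0.335 or less with others, as red over green; column medians ran from -0.0348 to -0.00433.

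Of 45220 spots, 8 unnamed and 42 ignored ones were left out. Intensities were corrected by normexp (offset 50) and ratios normalized by loess within arrays, with 1417 control spots at weight 0. Probes above the 95th percentile of 756 negative controls, in 1 channel or more on at least 3 of 6 arrays, were kept (31957 of 43753). The offset pulls ratios of dim probes toward 0. Ratios of a swap were turned and averaged, and 3 pairs were tested against 0 with limma 3.58.1 in R 4.3.3, adjusted by Benjamini-Hochberg over all kept probes (threshold 0.05). Differences between pairs and the dye term were fitted by limma over the 6 arrays, with pair and dye terms. Cow levels were read per channel after loess and Aquantile. Where a cow was below the controls on both arrays, a lower bound of the fold was also computed. For that bound alone, her level was taken as the higher of her own signal and the lowest signal above the controls. For THBS1 in pair 2 and TNC in pair 3 her own signal was the higher, so the bound equalled the fold measured. The levels and ratios given are those measured.

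Of the probes' symbols, 20049 matched RefSeq names (ARS-UCD2.0) and 1639 a RefSeq synonym, 78 kept the platform's name and 21987 probes were unnamed here. A listed gene was read at its brightest kept probe. Named were all members, the 3 genes of each related list with the smallest p and the 3 with the largest ratio, and the 3 most alike genes of each member with a pair at 2-fold or more. CD36, EFEMP2, FBLN7, AMOTL2, LATS2, FSTL1, SPARCL1, SPOCK1, SPOCK2 and the marker genes named singly were chosen after their values were seen. Members and lists were chosen with earlier results of these data known. The steps were tested on simulated data. Figures used Python 3.11.15 and matplotlib 3.10.9.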

Additional observations from a re-analysis of the deposited data

Results flagged for a closer look

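POSTN was singled out because its turned ratio differed between the slides of opposite dye orientation, by a limma test of the dye term. This term, the part of red over green shared by both slides, was 0.34 on the log2 scale (adjusted p = 0.02 by limma). As 35.1% of all kept probes had such a call, 1 of 7 genes is no more than over the array. Its turned ratios were lower on the swapped than on the forward array in each of the 3 pairs, with gaps of 0.55, 0.35 and 1.14. The term cancels in the mean of a pair as far as dye alone sets it, and dye and slide cannot be told apart.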

How the results depend on the processing

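Of 125 values of the 7 genes under other settings, 115 had the sign and the call they have as reported, and no setting brought a member past an adjusted p of 0.05 (lowest 0.28, for SPARC). Settings that changed only the filter, the test model or the summary over probes could not change a member's ratio. The agreement of signs under those settings was therefore fixed in advance. Taking the dyes as in the design text turned every sign, to -2.94 for THBS1, -2.26 for FN1, 0.44 for SPARC, -0.95 for TNC, -0.51 for POSTN, 0.62 for CCN1 and -1.68 for CCN2. Without a pair the means ranged from -0.12 to 1.53 for TNC, -1.12 to 1.44 for POSTN and -1.27 to 0.52 for CCN1, each turning without pair 3, which holds the largest ratio. TNC had no value where all 6 arrays had to exceed the controls. The count of probes past the threshold, 0 as reported and 0 without any 1 pair, was 8 with 6 arrays as independent and 2 with the replicate block, the pair as a random block; the unpaired fit gave 0. Same-numbered cows deviated from their group means with correlations of 0.195, 0.0481 and 0.3, but they share arrays. In the deposited values 3291 probes differed between pairs rather than 12887, and 1401 between slides rather than 11211, which was 2893 to 13913 without a pair; the cause was not tested. Chosen after seeing the data, the count of members with 1 sign on all 6 arrays, 2 as reported, was 0 in the deposited values, 1 with an offset of 16 (THBS1) and 3 without within-array normalization. The groups stayed apart for THBS1 under 3 other corrections. Dim signal limits THBS1 in reference cows and TNC in 5 of 6 cows.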
